A study of Mus musculus with 6 samples.

Results

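The transcripts described here come from neurons of the medial mammillary nucleus of the mouse that were labelled as PV-positive, PV being the calcium-binding protein parvalbumin. The members are the 3 libraries titled as PV, numbered 6, 7 and 8, of 6 libraries in the series. The other 3, numbered 1, 2 and 3, were labelled Drd2-positive, after the D2 dopamine receptor, and serve only to show where the PV libraries differed. Per the labels, the mice were male, and slices of the nucleus were treated with papain before fluorescent cells were aspirated with glass electrodes. RNA was purified on a column and sequenced after a SMARTER mRNA library preparation. The series design calls the libraries biological replicates. The sources used here do not give the mouse line or virus behind the fluorescence, the age of the animals, or how many cells and mice went into a library. Expression is in FPKM (fragments per kilobase of gene, scaled to 1e6 fragments), which adjusts levels for gene length and depth. FPKM does not adjust for the GC content of a transcript, which limits comparisons between genes in PV replicate 7, as described below. Unless stated otherwise, 3 values in a row are FPKM in PV replicates 6, 7 and 8, in that order.

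The medial mammillary nucleus is a relay of the memory circuit that joins the hippocampal formation with the anterior thalamus. Its projection neurons release glutamate, loaded into vesicles by the transporter encoded by Slc17a6. Parvalbumin buffers calcium and, in cortex and hippocampus, is best known from fast-spiking neurons that release GABA and carry rapid sodium and potassium channels. A neuron's firing and its inputs are set by its ion channels and receptors, most of which are assembled from subunits encoded by gene families, so the subunits present are described family by family.

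One of the 3 libraries stood apart, and this touches most of what follows. The FPKM denominators, worked out from the step size of low values, were 29.8, 27.7 and 28.4 in units of 1e6 fragments in PV replicates 6, 7 and 8, against 23.8 to 33.7 in the Drd2 libraries. For a gene 1 kilobase long, 1 read added 0.0297 to 0.0420 FPKM in the 6 libraries. Yet genes at 1 FPKM or more, the level called detected here, numbered 12398, 8610 and 10293. Genes encoded in mitochondrial DNA took 23.0%, 31.3% and 9.62% of all FPKM. In PV replicate 7, transcripts rich in G and C were low. Over 5 equal bins of 6209 genes (mean of at least 5 FPKM over the 6 libraries) by the GC content of the transcript, the median deviation of PV replicate 7 from each gene's median over the 6 libraries was 0.23, 0.03, -0.27, -0.92 and -1.56 on the log2(FPKM + 1) scale, from the lowest to the highest GC. The other 5 libraries stayed between -0.10 and 0.23 in every bin. This pattern was looked for after the values had been seen, and its cause was not tested.

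**Figure D1:**
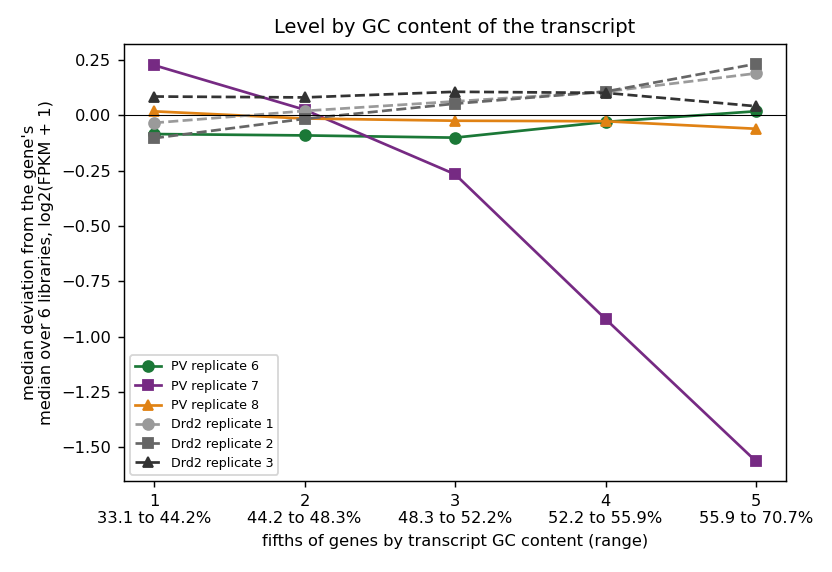
Median deviation of each library from the gene's median over 6 libraries (log2(FPKM + 1)), for 5 equal bins of genes ordered by the GC content of the longest transcript. PV replicate 7 ran from 0.23 in the lowest bin to -1.56 in the highest, and the other 5 libraries stayed between -0.10 and 0.23.

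The calmodulin genes Calm2 and Calm3, picked after their values were seen, differed in the direction of this pattern while encoding a single protein. Calmodulin is the general calcium sensor of cells, and Calm2 and Calm3 encode the same 149 residues. The first 90 bases of their coding sequences are printed to show how these genes differ. They run 5′ to 3′ on the coding strand and were read from GENCODE M21 transcripts. Capitals mark the bases that differ between the 2 genes. There are 15 of them, each at the last position of a codon.
Calm2: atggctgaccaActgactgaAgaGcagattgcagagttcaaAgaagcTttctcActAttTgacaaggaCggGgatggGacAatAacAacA
Calm3: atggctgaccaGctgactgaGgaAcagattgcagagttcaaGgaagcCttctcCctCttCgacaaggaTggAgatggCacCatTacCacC
Over the whole 450-base coding sequence, G or C stood at 48.0% of last codon positions in Calm2 and at 66.0% in Calm3, and the coding sequences were 82.7% identical. Calm2 (mm10 chromosome 17, 87433412 to 87446935) was at 1378, 12837 and 4004 FPKM. Calm3 (chromosome 7, 16915379 to 16924114) was at 191, 93.4 and 231. Calm2 was thus highest in PV replicate 7, and Calm3, whose transcript has the higher GC content (58.3%, against 42.7%), was lowest there. Calm2 also differed between PV replicates 6 and 8, which showed little trend with GC. Its difference of PV replicate 7 from the other PV libraries was 2.45 on the log2 scale. The median for list members below 45% GC was 0.56, so Calm2 is not typical in size.

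The same held across the gene lists used for the description. Among list members with a mean of at least 5 FPKM and a GC content of 55% or more, PV replicate 7 was the lowest of the 3 libraries in 48 of 64, and its median difference from the other PV libraries was -1.35 on the log2 scale. Below 45% it was the highest in 26 of 44, with a median difference of 0.56. Vamp2, the vesicle SNARE of synapses, was at 124, 7.76 and 61.6 FPKM. Hprt, an enzyme of purine salvage often used as a reference gene, went the other way, at 214, 876 and 354. For this reason the values of all 3 libraries are printed, and many of the counts are given for PV replicates 6 and 8 alone as well.

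All 4 genes taken here as markers of the population, of which only Pvalb is the label itself, were present in each library at more than 60 FPKM. Pvalb (chromosome 15, 78191114 to 78206400, minus strand) was at 349, 482 and 563 FPKM, and ranked 76, 85 and 47 among nuclear protein-coding genes. Slc17a6 (chromosome 7, 51622006 to 51671119, plus strand) was at 114, 132 and 144 FPKM, with a mean of 130 ± 15.1 (SD, n = 3). Slc17a6 ranked 375, 398 and 355. Nefh, the heavy chain of the neurofilaments that set the calibre of axons (chromosome 11, 4938754 to 4948064), was at 79.6, 74.9 and 82.9 FPKM. It was among the 10 genes with the smallest coefficient of variation among the 970 nuclear protein-coding genes with a mean of at least 50 FPKM, although its transcript has a GC content of 58.4%. The medium chain gene Nefm lies on chromosome 14 (68082590 to 68124846) and was at 112, 61.5 and 117 FPKM. Its exons overlap those of Nefl on the opposite strand over 19.2% of their length, and the sources used here do not say whether the counting used strand. Nefl, the light chain, was at 118, 155 and 212 FPKM, and Ina, a further filament protein of neurons, at 108, 128 and 120. Of Drd2 itself, PV replicate 6 held 1 read (0.0132 FPKM), and PV replicates 7 and 8 were listed at 0.

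All 14 pan-neuronal genes were detected in the 3 libraries, beside 27.8% of all nuclear protein-coding genes. Snap25, a SNARE of the presynaptic membrane, was at 751, 1109 and 766 FPKM, and Uchl1, an abundant neuronal ubiquitin hydrolase, at 398, 318 and 324. Rbfox3, which encodes the nuclear antigen NeuN, was at 34.0, 14.6 and 34.6. The neuronal tubulin gene Tubb3, with a GC content of 57.9%, was at 285, 61.7 and 311. It was thus low in the library in which GC-rich transcripts were low.

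Detection overlapped only in part. Of 21914 nuclear protein-coding genes, 10242, 7472 and 8686 were detected in PV replicates 6, 7 and 8, and 11403 in at least 1 of them. All 3 libraries shared 6084, which is 27.8% of the genes in the table and 53.4% of those detected anywhere. A further 2829 were detected in 2 libraries and 2490 in 1. PV replicate 7 alone missed 1798 genes with a median GC content of 52.3%, while PV replicate 8 alone missed 807 and PV replicate 6 alone 224. Without PV replicate 7 the shared number was 7882, or 36% of the genes in the table. Some genes were private to a library at a high level: 30, 14 and 15 genes were at 10 FPKM or more in PV replicate 6, 7 or 8 and at 0 in both others.

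The libraries ranked genes alike to a moderate degree. Across the 14656 genes of all kinds detected in at least 1 PV library, Spearman's rho was 0.562 between PV replicates 6 and 7, 0.609 between 6 and 8, and 0.561 between 7 and 8. These are correlations across genes, which are not independent replicates, and differences in transcript length and abundance are common to all libraries. Over nuclear protein-coding genes the values were 0.618, 0.701 and 0.614. For the 3 Drd2 pairs, rho was 0.716, 0.639 and 0.618 over the 15822 genes of all kinds detected in at least 1 Drd2 library, and 0.798, 0.715 and 0.718 over the nuclear protein-coding ones. The spread between libraries depended on the level. Of nuclear protein-coding genes with a mean of 1 to 10 FPKM, the highest and lowest PV libraries differed by a median of 3.97-fold on FPKM + 1, and 11.8% of the genes lay within 2-fold on FPKM itself. At 10 to 100 FPKM the median was 2.59-fold and 29.8% lay within 2-fold. At 100 FPKM or more it was 2.19-fold, and 192 of 486 genes (39.5%) lay within 2-fold. A difference of 2-fold between 2 genes at low levels is therefore within what separated the libraries themselves.

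The most abundant transcripts included genes of energy supply and calcium signalling. By mean rank over the 3 libraries, the first nuclear protein-coding genes were Calm2, Cst3 and Ubb. Cst3, the secreted protease inhibitor cystatin C, was at 3250, 3166 and 1573 FPKM, and Ubb, a polyubiquitin gene, at 1143, 5287 and 3621. Next came Cox6a1 and Cox6b1, subunits of cytochrome oxidase, and Mdh1, the cytosolic malate dehydrogenase. Cox6a1 was at 1820, 1417 and 2174, and Mdh1 at 837, 1514 and 1393. The first 25 also included Cox8a, Stmn3, Ndufa1, Uqcr10, Uqcr11, Ldhb, Selenow, Ndufa2, Fth1, Rplp1, Cox4i1, Snap25, Tmsb4x, Hba-a1, Aldoa, Mif, Dynlrb1 and Cox7a2. Stmn3, a neuronal regulator of microtubules, was at 1399, 899 and 1926 FPKM. Ldhb, the lactate dehydrogenase subunit favoured in oxidative tissue, was at 629, 1218 and 1701. Hba-a1, a haemoglobin gene of red blood cells and a near-identical copy of Hba-a2, was at 1206, 1277 and 467.

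Of the first 100 genes by mean rank, 37 bore names of the oxidative phosphorylation families Nduf, Sdh, Uqc, Cox, Cyc and Atp5, 6 bore names of cytosolic ribosomal proteins, and 1 encoded haemoglobin. Genes of oxidative phosphorylation under other names, such as the assembly factors Coa3 and Higd2a, were not counted. The 37 together took 6.82%, 11.4% and 9.56% of nuclear protein-coding FPKM. The 100 most abundant genes of each library taken by itself shared 49 members among all 3, and 148 genes were in at least 1 of the 3 sets. PV replicates 7 and 8 shared 72 and PV replicates 6 and 7 shared 62. Abundance was most concentrated in PV replicate 7, where 246 genes made up 50% of nuclear protein-coding FPKM, against 491 in PV replicate 6 and 386 in PV replicate 8. The 10 most abundant genes took 6.85%, 11.9% and 7.72%.

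**Figure D2:**
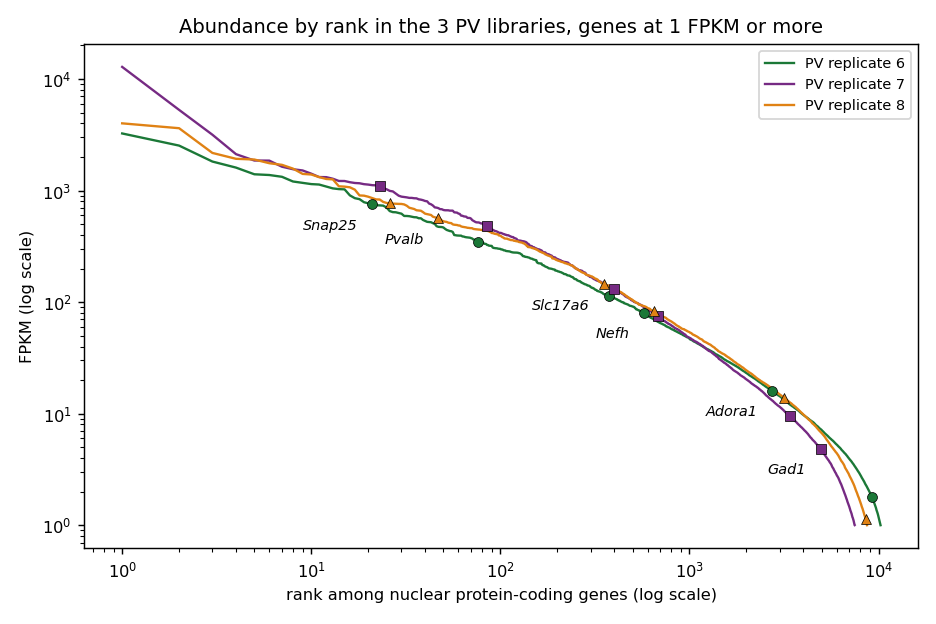
FPKM against rank among nuclear protein-coding genes at 1 FPKM or more, both on log scales, with 1 line per PV library and the position of 6 genes marked in each library. The 3 lines ran close together over the middle ranks, while PV replicate 7 started highest and ended first, at 7472 detected genes.

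Slc17a6 was the dominant vesicular transporter gene of every PV library. It took 96.6%, 92.7% and 98.2% of the summed FPKM of 6 vesicular transmitter transporters, with a mean of 95.8% ± 2.85 (SD, n = 3). Its relatives were low: Slc17a7, the main transporter of cortical neurons, was at 2.18, 0.811 and 2.38 FPKM, and Slc17a8 stayed under 1 FPKM in all 3 libraries. Of 11 genes of glutamate synthesis and release, 8 were detected in all 3 libraries and 10 in PV replicates 6 and 8. Got1, an aspartate aminotransferase, led at 268, 230 and 210 FPKM. Gls2, a glutaminase that makes glutamate from glutamine, was at 8.93, 13.1 and 51.9 and was thus highest in PV replicate 8.

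GABA genes were present at a low level and unevenly. Gad1 and Gad2, the enzymes that make GABA, were at 1.77, 4.81 and 1.13 FPKM and at 3.45, 10.6 and 1.18. The values for Gad1 rested on 404, 1017 and 244 reads. Slc32a1, the vesicular GABA transporter, was at 0.768 and 2.01 FPKM in PV replicates 6 and 7 and was listed at 0 in PV replicate 8. All 3 genes were highest in PV replicate 7. The GABA transaminase Abat, which breaks GABA down, was higher, at 20.1, 19.6 and 27.3. Slc6a5 and Slc6a13 were listed at 0 in every PV library. In a bulk sample, a few cells of another type cannot be told apart from a low level in every cell.

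No gene of monoamine or acetylcholine synthesis and release was detected in all 3 libraries, out of 13 in the list. Dbh, Slc18a3, Slc5a7, Slc6a2 and Slc6a4 were listed at 0 throughout. Here too PV replicate 7 was highest. The vesicular monoamine transporter Slc18a2 was at 0.912, 7.63 and 0.256 FPKM and Th, which makes the precursor of dopamine, was at 1.11, 3.51 and 0. Ddc, the next enzyme of that pathway, was at 2.14, 10.4 and 0.

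Transcription factors of the mammillary region were detected in part. Of 27 factors of the mammillary nucleus and the surrounding hypothalamus, 6 were detected in all 3 libraries and 8 in PV replicates 6 and 8. Lhx1 and Lhx5, LIM-homeodomain factors that mark the mammillary primordium, were at 21, 8.32 and 15.5 FPKM and at 8.65, 11.2 and 3.50. Foxb1, a forkhead factor of developing and adult mammillary neurons, was at 24.0, 4.19 and 14.7, and Nkx2-1, a factor of the ventral hypothalamus, at 6.70, 3.63 and 7.31. Nr4a2 was lower, at 1.56, 4.4 and 1.48. The exons of Foxb1 overlap those of B230323A14Rik on the opposite strand over 14% of their length, and that gene averaged 64.5 FPKM, so the level of Foxb1 is uncertain. Barhl1, Bsx, Lmx1a, Nkx2-4, Otp and Sim2 were listed at 0 in all 3 PV libraries.

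Neuropeptide genes ranged from nearly level to present in 1 library. Of 33 precursor genes, 9 were detected in all 3 libraries and 11 in PV replicates 6 and 8. Cartpt, the precursor of CART peptide, was at 2529, 764 and 184 FPKM, and Npy, the precursor of neuropeptide Y, at 439, 753 and 583. Cck, the cholecystokinin gene, was at 255, 108 and 107. Adcyap1, which encodes PACAP, was close to level, at 21.4, 21.2 and 22.3. The granins Scg2, Chgb and Chga, proteins of dense-core vesicles, were at 277, 370 and 342, at 209, 176 and 116, and at 113, 42.5 and 92.8 FPKM. Cbln1 and Vgf completed the 9. Ucn, which encodes urocortin, a peptide of the corticotropin-releasing family made in the midbrain Edinger-Westphal region, was at 1328 FPKM in PV replicate 6 (19950 reads), at 1.72 in PV replicate 7 (24 reads), and was listed at 0 in PV replicate 8 and in all 3 Drd2 libraries. It was the gene with the largest range among abundant genes. Pomc was at 0, 17.8 and 6.61, and Sst at 0.233, 7.21 and 9.98. Crh, Hcrt, Nmb, Pmch, Trh and Ucn3 were listed at 0 in every PV library.

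**Figure D3:**
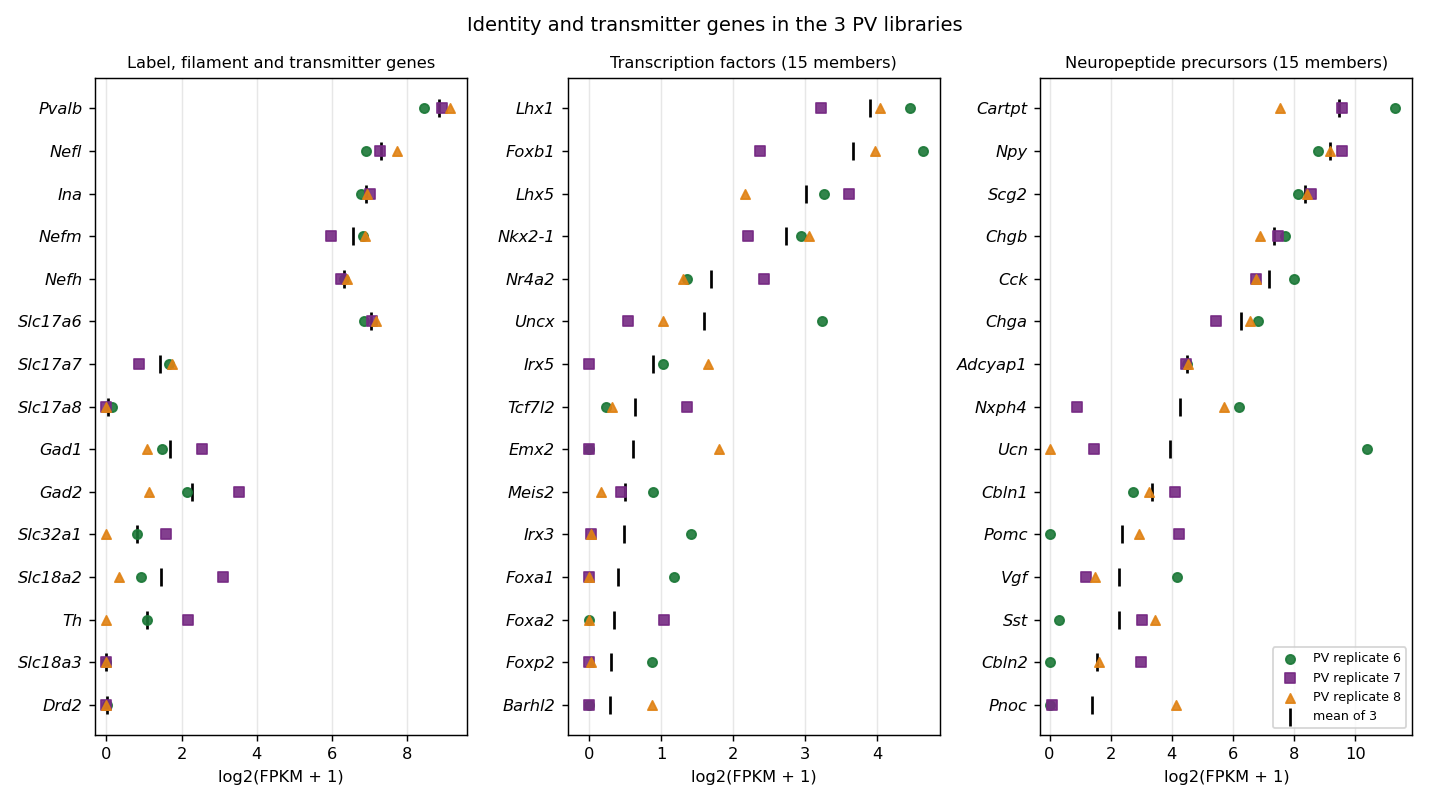
Level of label, filament, transmitter, transcription factor and neuropeptide genes in each PV library, as log2(FPKM + 1), with the mean of 3 as a bar; the last 2 panels show 15 members of their lists each, ordered by geometric mean. Pvalb, the filament genes and Slc17a6 sat close together in the 3 libraries, whereas Ucn ran from 0 to 1328 FPKM.

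The 8 abundant genes that varied most, among those with a mean of at least 50 FPKM, were Ucn, Tmem145, Hbb-bt, H2bc4, Fbxo2, Ssbp4, Lars2 and Fos. Of these, 5 were lowest in PV replicate 7. Fbxo2, a ubiquitin-ligase subunit of neurons, was at 206, 4.12 and 297 FPKM, and Tmem145 at 227, 0.779 and 59.3. The haemoglobin gene Hbb-bt and the histone gene H2bc4 were low in PV replicate 8, at 0.753 and 0.366. Fos, an immediate-early gene induced by activity and by tissue handling, was at 96.5, 1.78 and 119. Of 18 immediate-early genes, 8 were detected in all 3 libraries and 11 in PV replicates 6 and 8. The list summed to 356, 54.6 and 321 FPKM, and was lowest in PV replicate 7. Egr1 was lowest there too, but by less than Fos, at 27.7, 17.2 and 22.6.

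Ion channel genes were detected in all 3 libraries for 38 of 97 list members (39.2%, beside 27.8% of all nuclear protein-coding genes) and in PV replicates 6 and 8 for 57. The voltage-gated sodium channel alpha subunits, which form the pore that carries the action potential, were led by Scn1a, the Nav1.1 channel of fast-spiking neurons. Scn1a was at 41.5, 79.4 and 68.5 FPKM and took 65.8% ± 9.0 (SD, n = 3) of the summed FPKM of 9 alpha subunits. Scn8a, the Nav1.6 channel of axon initial segments and nodes, was at 19.1, 9.35 and 20.5, and Scn2a at 7.17, 13.3 and 7.37. The order of Scn8a and Scn2a was reversed in PV replicate 7. Scn4a and Scn10a, channels of muscle and of sensory neurons, were listed at 0 in all 3. Among the beta subunits, which tune channel gating, Scn2b was at 26.7, 48.8 and 44.8. Scn4b, the subunit tied to resurgent sodium current, was at 12, 0 and 2.75.

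Kv1 channels, which are low-threshold potassium channels of axons, were represented by 4 of 6 alpha subunits. Kcna2 was at 27.9, 22.6 and 50.7 FPKM, Kcna6 at 25.2, 8.19 and 27.7, and Kcna1 at 31.8, 9.30 and 18.1. Of the family total, Kcna2 took 44.5% ± 10.7, Kcna1 25.2% ± 10.1 and Kcna6 25.1% ± 6.14 (SD, n = 3). The order among these 3 differed between libraries: Kcna1 was first in PV replicate 6 and Kcna2 in the others. Kcnab3 and Kcnab2, their cytoplasmic beta subunits, were at 59.4, 23.8 and 46.5 and at 21.3, 8.15 and 27.1. Kcna3 was listed at 0.

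Of the Kv3 subunits, which repolarise the membrane fast enough for sustained rapid firing, Kcnc1 was the one detected in all 3 libraries. It was at 25.2, 8.58 and 23.4 FPKM and took 81.8% ± 13.4 of its family. In PV replicates 6 and 8, 2 of the 4 Kv3 subunits were detected. Of Kv4 channels, which carry transient A-type current, the subunit Kcnd2 was at 2.30, 9.51 and 9.11, and its partner Kcnip4 was far higher, at 35.8, 130 and 52.6. Kcnip3 was at 30.9 in PV replicate 6 and at 2.45 and 0.139 in the others.

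Among potassium channels that shape slower excitability, 4 of 16 were detected in all 3 libraries and 8 in PV replicates 6 and 8. They included Kcnh2 (15.4, 4.10 and 13.2 FPKM), the large-conductance calcium-activated channel Kcnma1 (4.99, 12.7 and 8.28) and Kcnh7 (2.89, 6.23 and 10.0). The sodium-activated channel Kcnt1 was at 8.18, 0.0913 and 14.9, and the small-conductance channel Kcnn2 at 7.60, 0.0290 and 4.51. Both were under 0.1 FPKM only in PV replicate 7. The inward rectifiers opened by G proteins were led by Kcnj9, at 39.0, 28.3 and 27.1, and Kcnj3, at 15.1, 28.2 and 13.2. The leak channels Kcnk3 and Kcnk1 were at 17.3, 4.61 and 6.42 and at 12.3, 13.6 and 2.18.

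HCN channels open on hyperpolarisation and drive pacemaking. Of these, Hcn4 was at 3.66, 0 and 9.33 FPKM, and Hcn2 at 4.14, 0.690 and 2.32. Both were lowest in PV replicate 7. Of the high-voltage calcium channel pores, which trigger transmitter release, Cacna1b (N-type) was at 8.47, 1.36 and 18.1, Cacna1a (P/Q-type) at 5.70, 2.50 and 8.41, and the L-type Cacna1d at 1.46, 1.01 and 2.46. Of the T-type pores, known for burst firing, none of the 3 was detected in all libraries: Cacna1i was at 2.33, 0.242 and 5.0 and Cacna1g at 0.218, 0.852 and 0.0348. The auxiliary subunit Cacnb4 was at 16.0, 31.1 and 13. Nalcn, the sodium leak channel, and its partner Unc80 were at 8.29, 19.8 and 7.93 and at 10.8, 20.5 and 21.5. The acid-sensing channel Asic1 was at 9.99, 0.170 and 17.4, and thus near 0 in PV replicate 7 alone.

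Receptor channels for glutamate and GABA were detected in all 3 libraries for 17 of 33 subunits (51.5%), and no further subunit was added by leaving out PV replicate 7. All 4 AMPA receptor subunits, which carry fast excitation, were among them. Gria2, the subunit that keeps the channel closed to calcium, was at 46.3, 36.9 and 59.6 FPKM and took 65.9% ± 8.86 of the family (SD, n = 3). Gria1 was at 16.2, 6.11 and 17.2, Gria3 at 4.14, 4.09 and 14, and Gria4 at 10.5, 1.40 and 6.01. Of the NMDA receptor subunits, the obligatory Grin1 was at 15.1, 1.57 and 12.4, Grin2a at 9.59, 5.23 and 13 and Grin2b at 3.80, 2.61 and 6.16. Grin2a was above Grin2b in each library. Of the kainate and delta subunits, Grik5 and Grik2 were detected in all 3. Grik5 took a near-constant 49.4% ± 1.47 of the family, but its level varied, at 10.4, 1.43 and 11.96 FPKM. The family summed to 20.3, 2.94 and 24.5 FPKM, so the share in PV replicate 7 rested on low values.

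The GABA-A receptor list held 15 subunits. Gabra5, an alpha subunit known from extrasynaptic receptors of the hippocampus, was the most abundant alpha subunit of PV replicates 6, 7 and 8, at 19.4, 36.6 and 27.3 FPKM. The alpha subunits Gabra2, Gabra3 and Gabra4 lay between 2.93 and 12 FPKM. The GABA-B subunits Gabbr1 and Gabbr2 were at 47.8, 20.2 and 55.8 and at 26.3, 9.19 and 18.0. The glycine receptor beta subunit Glrb was at 71.3, 45.1 and 40.2, while no glycine receptor alpha subunit was detected in all 3 libraries. Glra2, the alpha subunit that reached 1 FPKM, did so only in PV replicate 8, at 1.67.

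Metabotropic and peptide receptors were sparser. Of 98 receptors of all other kinds, GABA-B and glycine receptor subunits included, 16 were detected in all 3 libraries (16.3%), 19 in PV replicates 6 and 8, and 29 were listed at 0 throughout. Metabotropic glutamate receptors made up 5 of the 16. Grm7, a presynaptic receptor, was at 50.2, 18.6 and 35.1 FPKM, and Grm2, which lowers transmitter release, at 66.1, 5.60 and 43.5. Grm4 and Grm8 were lower, and Grm6, the receptor of retinal bipolar cells, was listed at 0.

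Each of the receptor families for amines and acetylcholine had at most 1 receptor detected in all libraries. For adrenaline and noradrenaline it was Adra1b, an alpha-1 receptor, at 20.9, 12.2 and 10.3 FPKM. For serotonin it was Htr2a, at 2.94, 7.16 and 5.62. For acetylcholine it was Chrnb2, a nicotinic subunit, at 3.43, 6.53 and 3.68, and 16.3% of its exon length overlaps Adar on the opposite strand. No dopamine receptor was detected in all 3. Drd3 was at 6.78 in PV replicate 6 and listed at 0 in the others. Single libraries held other receptors that stood under 0.1 FPKM in the rest: Htr7 was at 13.9 in PV replicate 7 alone, Htr5a at 7.09 and Chrm5 at 9.04 in PV replicate 8. Adora1, the inhibitory adenosine receptor, was at 16.0, 9.47 and 13.9, and Oprl1, the nociceptin receptor, at 30.4, 1.15 and 2.95. Of 30 neuropeptide receptors, 3 were detected in all 3 libraries and 4 in PV replicates 6 and 8. The 3 were Npy1r (4.72, 6.07 and 20.2), Cckbr (5.83, 5.62 and 1.57) and Gpr83 (2.22, 5.37 and 2.94). A further 11 were listed at 0, including the oxytocin receptor Oxtr and the neurokinin receptors Tacr1 and Tacr3.

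**Figure D4:**
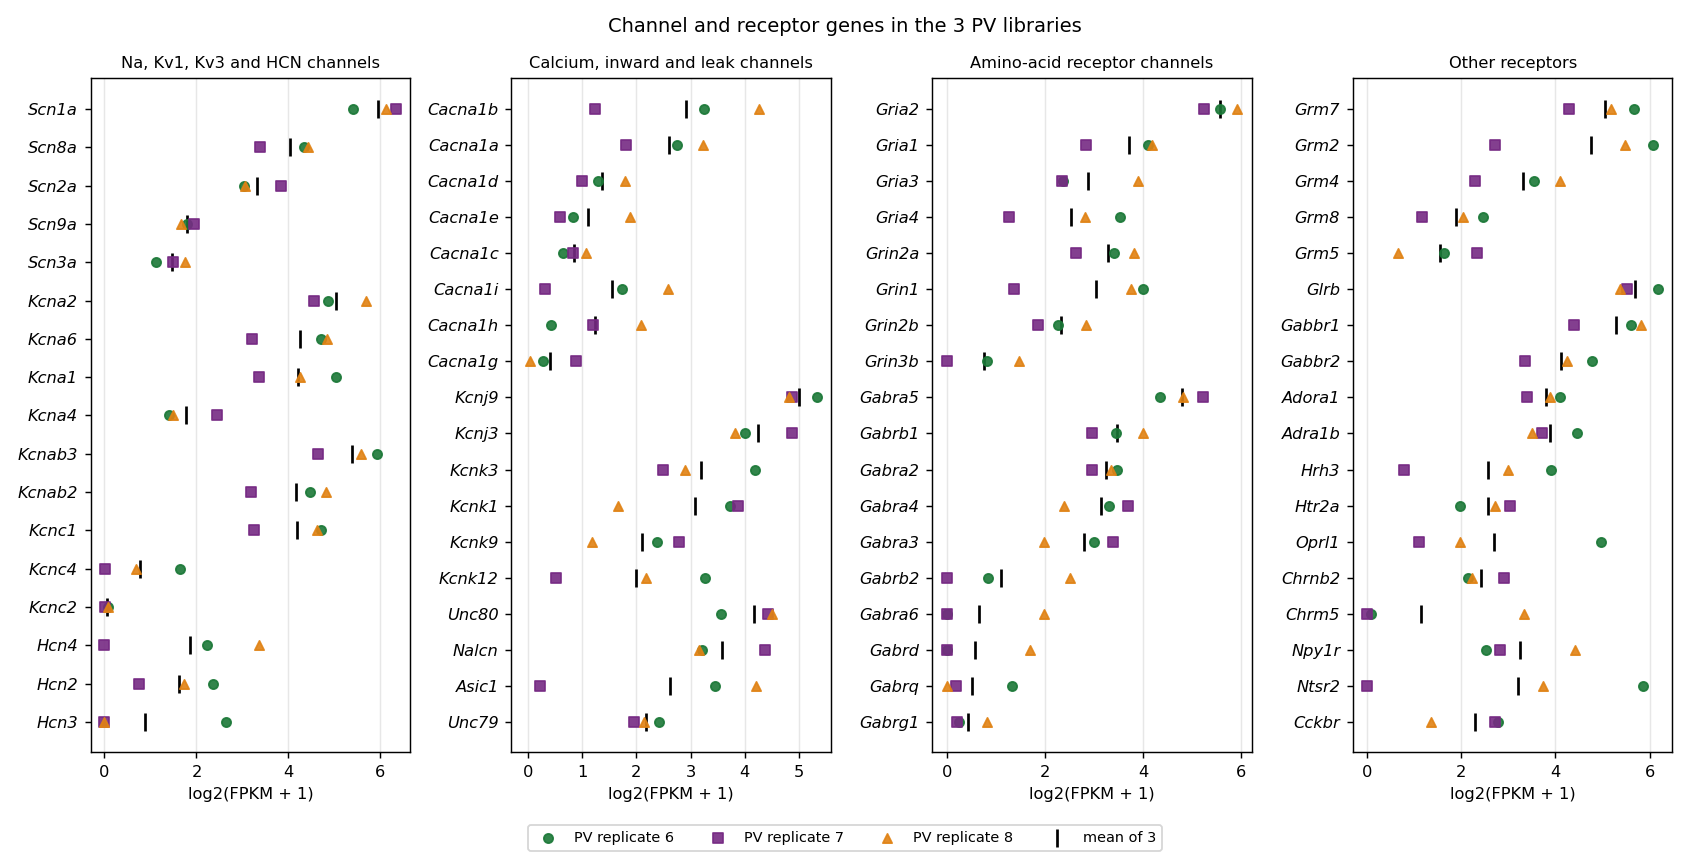
Level of channel and receptor genes in each PV library, as log2(FPKM + 1), grouped by family, with the mean of 3 as a bar. The same gene was first in all 3 libraries in 11 of the 26 channel and receptor families (Scn1a, Kcnc1 and Gria2 among them), and PV replicate 7 lay lowest for genes such as Asic1, Grin1 and Grm2.

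Together the channel and receptor lists held 228 genes, of which 71 (31.1%) were detected in all 3 PV libraries, against 27.8% of all nuclear protein-coding genes. In PV replicates 6 and 8 they were 93, against 36% of all such genes. The share over all lists was thus near the background, and ion channels and receptor channels lay above it and other receptors below it.

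The release machinery was broadly present, with 18 of 23 genes detected in all 3 libraries and 20 in PV replicates 6 and 8. Rab3a, the vesicle GTPase, was at 534, 135 and 570 FPKM and Syt1, the fast calcium sensor of release, at 107, 149 and 108. Vamp1 was at 75.2, 19.7 and 35.2 and Cplx1, a SNARE-binding complexin, at 50.0, 17.5 and 8.64. Stx1a, a syntaxin, was low, at 1.79, 0 and 0.172. Of pumps and chloride transporters 12 of 14 were detected in all 3. The sodium pump beta subunit Atp1b1 was at 380, 311 and 439, and the chloride exporter Slc12a5 (KCC2) at 37.4, 27.9 and 62.1. Beside Pvalb and calmodulin, the calcium-binding proteins included Hpca at 191, 38.3 and 146 and Vsnl1 at 81.8, 128 and 98.3. Calb1 was at 4.12, 0.544 and 18.5, and the secretagogin gene Scgn was listed at 0. Of 9 genes of the perineuronal net, the matrix that surrounds many parvalbumin neurons, Bcan, Hapln4 and Tnr were detected in all 3, at 59.4, 8.75 and 24.3 for Bcan. Acan, the core aggrecan, was at 0.633, 5.12 and 1.46 FPKM. The neuronal connexin gene Gjd2 was listed at 0.

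Transcripts of other cell types were present and differed between libraries. Of 14 microglial markers, 11 were detected in all 3 PV libraries, and their sum was 1798, 1072 and 502 FPKM. Ctss, a lysosomal protease, was at 378, 535 and 140 and P2ry12, a receptor of resident microglia, at 25.2, 63.7 and 8.15. Of 14 oligodendrocyte markers 6 were detected in all 3, with sums of 348, 350 and 73.3, and the myelin gene Mbp was at 178, 38.4 and 19.5. Of 12 astrocyte markers 7 were detected in all 3, with sums of 740, 673 and 607, of which Aldoc alone gave 510, 485 and 512. The other astrocyte genes were lower, with Gfap at 16.9, 1.72 and 0.242 and Aqp4 at 2.71, 1.58 and 1.76. The 5 blood markers summed to 3002, 3204 and 743. Oligodendrocyte precursor markers summed to 25.9, 14.6 and 26.9. None of 12 vascular and mural markers was detected in all 3 libraries, with sums of 0.411, 0.113 and 9.29, and Cldn5, the tight-junction gene of brain endothelium, was listed at 0 throughout. The 8 ependymal and tanycyte markers summed to 13, 3.73 and 2.27. PV replicate 8 was thus lowest in microglial, oligodendrocyte and blood transcripts, and their part in the levels of other genes was not tested.

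The Drd2 libraries, used next for comparison, also differed in transcripts of other cell types. In Drd2 replicates 1, 2 and 3, microglial markers summed to 23.9, 118 and 4070 FPKM and oligodendrocyte markers to 432, 1526 and 93.2, and both overlapped with the PV libraries. Drd2 replicate 3 thus stood apart in microglial transcripts. Blood markers summed to 0.336, 12.1 and 0, below every PV library. The part of these cells in the differences between the groups was not tested.

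Compared with the Drd2 libraries, few genes passed a test over the whole table. By limma on log2(FPKM + 1), 5 of 11478 genes were higher in PV (0.0436%) and 25 lower (0.218%), with 1468 at an unadjusted p under 0.05. Of the 4 marker genes, Nefh and Nefm passed, and the other 3 genes higher in PV were the haemoglobin genes Hba-a1, Hba-a2 and Hbb-bs. The markers were chosen with earlier results of these same data known, so their calls are not independent support for them as markers. In Drd2 replicates 1, 2 and 3, Nefh was at 12.5, 14 and 11.7 FPKM, so every PV library was higher, with a log2 difference of 2.55 ± 0.39 (SE; limma adjusted p = 0.0384). Nefm was at 7.14, 16.1 and 12.4 there, with a log2 difference of 2.93 ± 0.48 (limma adjusted p = 0.0497). Pvalb, at 10.4, 22.5 and 99.5 in the Drd2 libraries, did not overlap between the groups and did not pass (limma adjusted p = 0.0501). Slc17a6 was at 108, 123 and 144 in the Drd2 libraries, a log2 difference of 0.07 ± 0.34 (SE; limma adjusted p = 0.955). The calls for Nefh and Nefm were each lost in 9 of 15 alternatives: without any 1 of the Drd2 replicates 1, 2 and 3, without PV replicate 6 or 8, with rescaling to TPM or over nuclear protein-coding genes, with a pseudocount of 0.1 FPKM, and with no filter on low values. Without Drd2 replicate 3, the log2 differences were 2.49 for Nefh and 3.00 for Nefm (limma adjusted p = 0.140 and 0.146), and 1 gene was higher and 0 lower over the whole table by limma, with 1178 at an unadjusted p under 0.05. Hba-a1 kept its call without Drd2 replicate 3 and lost it with no filter and with limma voom, while Hba-a2 and Hbb-bs lost theirs in 5 alternatives each. Limma adjusted p over the alternatives ran from 0.0243 to 0.224 for Nefh and from 0.0136 to 0.310 for Nefm. Of 16 tested calcium-binding genes, 3 were among the 25 lower in PV, beside 0.218% of all tested genes. Calb1 was 1 of them, with a log2 difference of -5.36 (limma adjusted p = 0.0384). Its call was lost in 8 of 15 alternatives. That list too was chosen with earlier results of these data known, so its calls are not independent support.

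Of the 228 channel and receptor genes, 124 reached 1 FPKM in at least 3 of the 6 libraries and were tested, and the rest have no test. Gpr83, a G-protein-coupled receptor of the brain, was the only one past the threshold. Its FPKM of 144, 134 and 37.4 in the Drd2 group lay above every PV library, with a log2 difference of -4.39 (limma adjusted p = 0.0316, from 0.0196 to 0.310 over the alternatives). That call was also lost in 9 of 15 alternatives: without any 1 of the Drd2 libraries, without PV replicate 6 or 8, with rescaling over nuclear protein-coding genes, with limma voom, with a pseudocount of 0.1 FPKM, and with no filter on low values. Without Drd2 replicate 3 its log2 difference was -5.01 (limma adjusted p = 0.0663). Values of PV and Drd2 libraries did not overlap for 15 of the 124 on the higher side, where 5.83% of all tested genes did so, and for 23 on the lower side, where 13.1% did. Their median log2 difference was -0.29, beside -0.28 over all tested genes. The filter keeps a gene that is high in 1 group only, so these shares describe the tested genes and not the full lists. All 95 list members without overlap, channels and receptors among them, kept their sign under each other scaling. These scalings were TPM, the nuclear protein-coding total, quantile normalization and subtraction of the GC trend. The 95 members were picked for not overlapping in the same values, so unchanged signs are not separate support for a difference.

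The 15 on the higher side held 3 of the 4 tested Kv1 alpha subunits, beside 5.83% of all tested genes. They also held 1 of 2 tested Kv1 beta subunits, Kcnab3. Of the sodium channel genes, they held 1 of 6 tested alpha subunits (Scn1a) and 1 of 3 tested beta subunits (Scn2b). The median log2 difference was -0.04 over the tested sodium channel alpha subunits and -1.20 over the beta subunits. Kcna2 reached 3.33, 1.10 and 6.12 FPKM in the Drd2 group, against 27.9, 22.6 and 50.7 in the PV libraries (limma adjusted p = 0.0855). Scn1a was at 27.6, 17.2 and 23.3 there (limma adjusted p = 0.212). Gria3 was at 0.0150, 0.172 and 0, and Adra1b at 0.368, 1.57 and 3.50. None of these passed the threshold. The 23 on the lower side included Drd2, the label of the other group. They also held 5 of the 10 tested GABA-A receptor subunits, beside 13.1% of all tested genes, while 1 GABA-A subunit was on the higher side. The muscarinic receptor Chrm3, also lower, was at 9.79, 6.43 and 11.4 in the Drd2 libraries. It was at 0.123, 0.0289 and 0.344 in the PV libraries (limma adjusted p = 0.0720). Kcnh5, an EAG-type potassium channel, was listed at 0 in PV replicates 6 and 8 and was at 3.33, 2.89 and 7.63 in the Drd2 libraries.

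**Figure D5:**
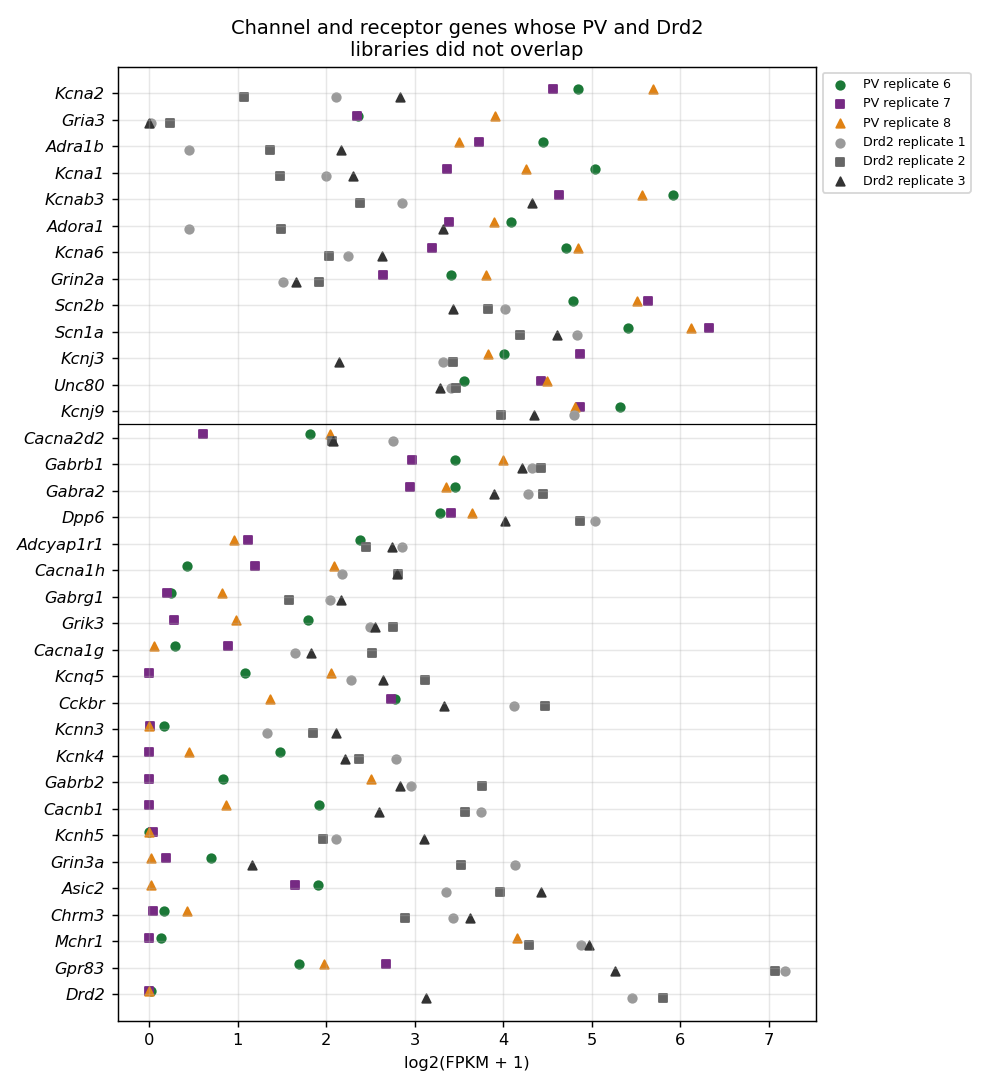
Level in all 6 libraries, as log2(FPKM + 1), of 35 of the 38 channel and receptor genes whose PV and Drd2 values did not overlap, ordered by the log2 difference, with the line dividing 13 higher from 22 lower in PV. Gpr83 was the only one of them past the limma threshold.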

How the data were processed

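RNA sequencing of 6 mouse libraries was used, 3 PV-positive and 3 Drd2-positive, grouped by sample title. The deposited table holds FPKM made by the authors for 55414 Ensembl genes. The submitters' processing notes name STAR, and the builds mm10, hg38 and GRCh38. For the quantifier, strand setting and annotation release, details were not given in the sources used here. Positions, exon lengths, GC content of the longest transcript and coding sequences came from GENCODE M21 (mm10), in which 52133 identifiers (94.1%) were found.

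Depth and read numbers were recovered from the steps between low values, scaled by exon length: 97.8% to 98.8% of values worth 20 reads or fewer came out whole to within 0.01 read. Depth covers counting error alone, since PCR copies of a molecule are counted too, and a listed 0 can stand for a failed estimate.

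Detection meant at least 1 FPKM. Shares are means ± SD over libraries. The 2 groups were compared on log2(FPKM + 1) with the trended test of limma 3.58.1 in R 4.3.3 (2-sided, Benjamini-Hochberg, threshold 0.05), over genes that reached 1 FPKM in 3 or more libraries. The pseudocount of 1 understates differences of weakly expressed genes. The test was tried on simulated data with independent noise of the same spread in every library, and without a GC trend or an outlying library. That trial therefore does not show how the test does on libraries that differ as these do. Nothing says beyond the series design that replicates came from separate animals, so p-values measure the spread between these libraries.

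The text names the 4 markers, the 25 genes with the best mean rank, members of 51 gene lists (512 genes), by default the 3 highest and those at 0 (some of them are not reported here), and the 8 abundant genes (mean of at least 50 FPKM) with the largest range. Other list members, and single genes of the comparison with Drd2, were chosen after their values were seen. The population and the lists were chosen with earlier results of these data known. Alternatives were other thresholds, pseudocounts, filters, scalings (TPM, nuclear protein-coding total, quantile), limma voom on the recovered reads, and leaving out each library. Subtracting each library's median trend over 20 GC bins was added after the data were seen.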

Additional observations from a re-analysis of the deposited data

How the results depend on the processing

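Of all genes, 6572 were detected in all 3 PV libraries. The number was 3587 at 5 FPKM and 10073 when 2 of 3 libraries sufficed, and without 1 library it ran from 6909 to 8750, highest without PV replicate 7. The mean rho between PV libraries, 0.577, was 0.537 over genes at 5 FPKM, 0.629 over every gene above 0, 0.644 over nuclear protein-coding genes and 0.691 as Pearson's r on log2 values. It ran from 0.561 to 0.609 when 1 library was left out, highest without PV replicate 7, and was 0.586 with the GC trend subtracted.

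Genes past the limma threshold, 5 higher and 25 lower in PV, were 1 and 3 with a pseudocount of 0.1 FPKM, 13 and 55 with 5 FPKM, and 0 and 0 with no filter on low values (1509 at an unadjusted p under 0.05). Rescaling to TPM gave 3 higher, rescaling over nuclear protein-coding genes 3 and 5, quantile normalization 22 and 46, subtracting the GC trend 10 higher, and limma voom 15 lower. Without 1 library the counts ran from 1 to 7 higher and from 0 to 52 lower. No gene was lower without Drd2 replicate 1, 2 or 3 (1019, 999 and 1178 genes at an unadjusted p under 0.05), and 13 were without PV replicate 8 and 52 without PV replicate 6. Without Drd2 replicate 1, 2 or 3, the genes higher in PV numbered 2, 3 and 1. The median log2 difference of all genes, -0.28, was -0.49 with TPM, -0.21 over nuclear protein-coding genes, 0.05 with quantile normalization and -0.05 with the GC trend subtracted.

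The share of Slc17a6 stayed between 94.7% and 97.9% in its 4 alternatives. For the 4 markers, leaving out 1 of 3 libraries cannot move a mean by more than its SD, so only the means are given. The mean ran from 416 to 522 FPKM for Pvalb and from 123 to 138 for Slc17a6. It ran from 77.2 to 81.2 for Nefh and from 87.0 to 115 for Nefm. The 8 rescaled values moved because the unit changed. No paired analysis was possible because the sources used here do not link any PV library to a Drd2 library. The PV libraries are numbered 6, 7 and 8 and the Drd2 libraries 1, 2 and 3, and the sources do not say whether the numbers stand for animals. With 3 libraries of unknown cell number, levels under 10 FPKM are the least certain.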
